A study of Danio rerio with 8 samples.

Results

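The antioxidant response of zebrafish melanomas was followed through 6 genes: sod1 (ENSDARG00000043848), sod2 (ENSDARG00000042644), cat (ENSDARG00000104702), gpx1a (ENSDARG00000018146), hmox1a (ENSDARG00000027529) and nfe2l2a (ENSDARG00000042824). They were chosen by gene ID, and all 6 were among the 22416 genes listed and the 16853 tested. RNA was sequenced from 8 tumours, 3 carrying Tg(mitfa:egfp) and 5 carrying Tg(mitfa:dgat1a). dgat1a encodes a diacylglycerol O-acyltransferase, an enzyme that makes triacylglycerol, and egfp encodes the green fluorescent protein that served as the control. All 8 fish, controls included, shared a genetic background that includes mitfa-/- and nras G12D, and tumours were taken at 10 to 12 weeks of age. The tumours were made with miniCoopR, a vector that carries a mitfa rescue gene beside the transgene, so that the fish regain only melanocytes that hold both. The mitfa promoter drives each transgene in the melanocyte lineage, whereas a removed tumour also holds other cells. The labels do not say whether a sample is 1 tumour or a pool, nor which clutch it came from, so the p-values measure only the spread between these samples.

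Superoxide leaks from mitochondria and oxidases, and superoxide dismutases turn it into hydrogen peroxide. Catalase and glutathione peroxidases then remove the peroxide, and haem oxygenase breaks down free haem, itself an oxidant. Many such genes are activated in vertebrates by the transcription factor Nrf2, which Keap1 binds and targets for degradation until oxidants or electrophiles modify Keap1. Melanocytes make hydrogen peroxide as a by-product of melanin synthesis, and the title of the study names oxidative stress among the processes on which DGAT1 acts. The comparison of dgat1a with egfp tumours therefore asks how transcripts of this defence differ when dgat1a is expressed. Nrf2 is controlled largely through its protein, which these RNA data do not measure.

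Levels are given in fpm, the per-library scaled read level the authors deposited. The libraries held 20936089 to 26865735 reads on listed genes, and 3 reads, the smallest level taken as detectable, equalled 0.109 to 0.138 fpm. The ID that the name table calls DGAT1 lay between 26.5 and 75.1 fpm in egfp tumours and between 2223 and 4160 fpm in dgat1a tumours, so every library had the direction its label gives. The name table gives no a or b for that ID, and reads of the transgene cannot be told from those of the native gene. All 9 IDs matched to melanocyte markers were detected in every tumour, with a summed level of 5779 to 7345 fpm in egfp tumours and 3949 to 19241 fpm in dgat1a tumours. Within that sum, pmela lay at 1433 to 2373 fpm in egfp and 1398 to 13275 fpm in dgat1a tumours. MITF (ENSDARG00000003732) lay at 1609 to 2851 fpm in egfp and 684.9 to 1565 fpm in dgat1a tumours. Reads of the mitfa rescue gene cannot be told from those of the native gene. Other cells were present too, with keratinocyte markers summing to 384.0 to 3110 fpm in egfp and 952.4 to 3309 fpm in dgat1a tumours and endothelial markers to 51.4 to 105.0 and 50.2 to 98.6 fpm. The profile of egfp replicate 1 was the most distant, with a score of -125.9 on the first principal component against -27.8 to 42.00 in the other 7 tumours. Results that rest on that tumour are given with and without it.

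None of the 6 genes passed the threshold for a difference between the groups. In limma, a linear model fitted across all genes on log2(fpm + 0.5), 0 of 6 had a Benjamini-Hochberg adjusted p under 0.05, where 0.0534% of all genes tested did. At an unadjusted p under 0.05 there were 2 of the 6, sod2 and cat, both with lower levels in dgat1a tumours, against 15% of all genes tested in either direction and 8.18% in that direction. When egfp replicate 1 was left out, 0 of 6 had an adjusted p under 0.05 (background 0.0297%), and the 1 gene with an unadjusted p under 0.05 was nfe2l2a (background 8.96%). With edgeR's quasi-likelihood test and with DESeq2, both on recovered reads, 0 of 6 had an adjusted p under 0.05 (background 0.0178% and 5.2%). In each tool 3 of 6 had an unadjusted p under 0.05 (background 16.5% and 19.2%), the third being nfe2l2a. Without egfp replicate 1, DESeq2 gave 0 of 6 an adjusted p under 0.05 (background 1.61%). It gave 1 of 6, nfe2l2a, an unadjusted p under 0.05 (background 12.5%). The unadjusted edgeR p-values without that tumour were 0.251 for sod2, 0.221 for cat and 0.0386 for nfe2l2a. Over all 8 tumours, the values of the groups overlapped for all 6 genes, whereas they did not overlap in 10.4% of all genes tested. The median log2 fold change of the 6, which had both signs, was -0.16, beside 0.04 for all genes tested, and without egfp replicate 1 it was -0.28, beside 0.02.

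**Figure D1:**
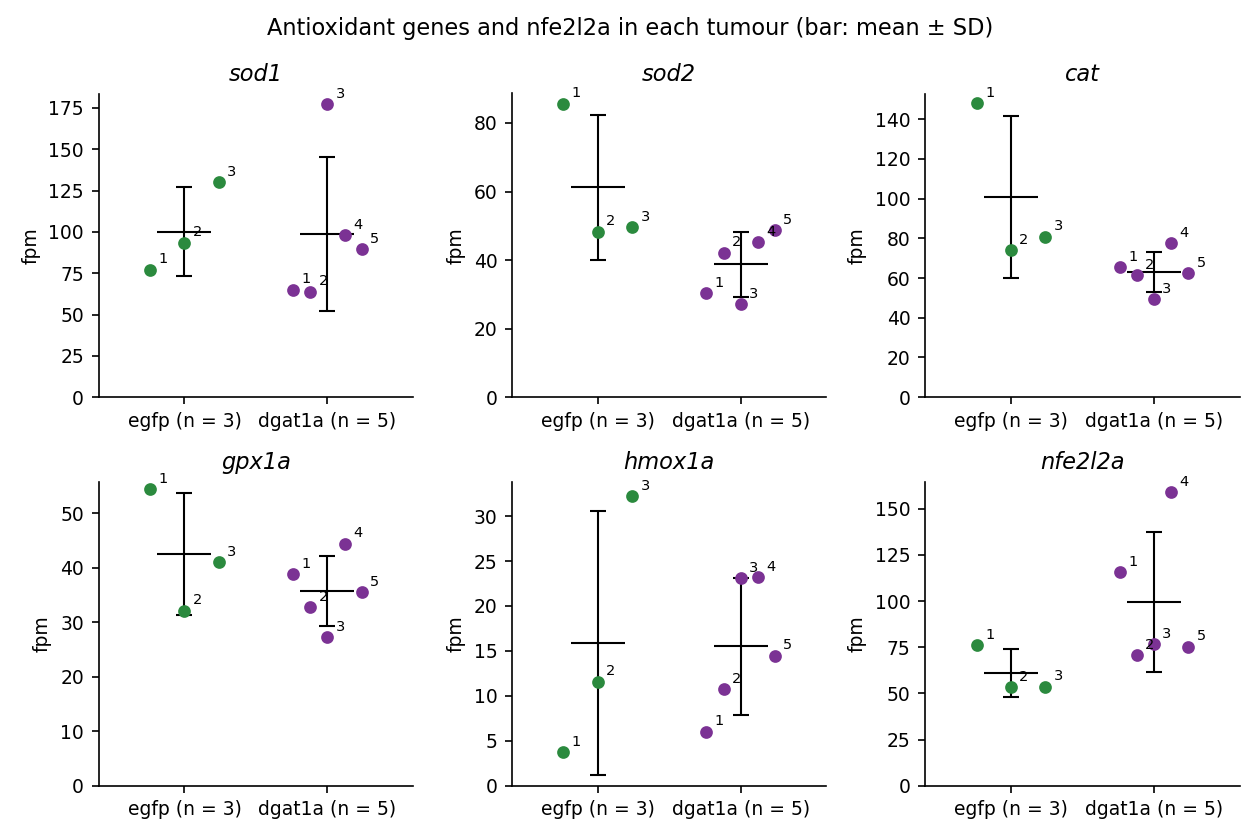
Level in fpm (linear axis from 0) of each of the 6 genes in every tumour, with the replicate number beside each point and the mean and SD of each group in black. egfp replicate 1 is the highest tumour for sod2, cat and gpx1a and the lowest for hmox1a, and the groups overlap in all 6 panels.

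The superoxide dismutases were described first. sod1 encodes the copper and zinc enzyme of the cytosol. It measured 77.2, 93.5 and 129.9 fpm in egfp replicates 1 to 3 and 65.1, 63.9, 177.5, 98.07 and 89.7 fpm in dgat1a replicates 1 to 5. The dgat1a tumours spanned the whole egfp range, with dgat1a replicate 3 above every other tumour and dgat1a replicates 1 and 2 below every egfp tumour. The group means were 100.2 ± 26.99 fpm (SD, n = 3) and 98.8 ± 46.5 fpm (SD, n = 5). The log2 fold change was -0.09 ± 0.35 (SE; limma adjusted p = 0.917), a 0.937-fold level with a 95% interval of 0.547 to 1.61. Its sign depended on single tumours and was positive without egfp replicate 3 (0.11).

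sod2 encodes the manganese enzyme of the mitochondrial matrix. It measured 85.7, 48.3 and 49.7 fpm in egfp replicates 1 to 3 and 30.4, 42.2, 27.1, 45.3 and 48.7 fpm in dgat1a replicates 1 to 5. egfp replicate 1 was far above all other tumours, and 4 of the 5 dgat1a tumours lay below every egfp tumour. The log2 fold change was -0.64 ± 0.28 (SE; limma adjusted p = 0.332), a 0.643-fold level with a 95% interval of 0.414 to 0.998. Leaving out egfp replicate 1 gave -0.37 (limma adjusted p = 0.722), with a 95% interval of -1.02 to 0.28.

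The 2 peroxide-removing enzymes shared with sod2 both their highest tumour, egfp replicate 1, and their lowest, dgat1a replicate 3. cat encodes catalase, the peroxisomal enzyme that splits hydrogen peroxide into water and oxygen. It measured 148.0, 74.2 and 80.8 fpm in egfp replicates 1 to 3 and 65.5, 61.3, 49.4, 77.5 and 62.5 fpm in dgat1a replicates 1 to 5. As with sod2, 4 of the 5 dgat1a tumours lay below every egfp tumour, and egfp replicate 1 was the highest tumour by a wide margin. The log2 fold change was -0.61 ± 0.26 (SE; limma adjusted p = 0.317), a 0.653-fold level with a 95% interval of 0.435 to 0.981. When egfp replicate 1 was left out it was -0.31 (limma adjusted p = 0.715), with a 95% interval of -0.83 to 0.22.

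gpx1a encodes a glutathione peroxidase, a selenoenzyme that reduces hydrogen peroxide with glutathione. It measured 54.4, 32.1 and 41.00 fpm in egfp replicates 1 to 3 and 38.9, 32.8, 27.3, 44.4 and 35.5 fpm in dgat1a replicates 1 to 5. It varied least of the 6 genes, and 4 of the 5 dgat1a tumours lay within the egfp range. The log2 fold change was -0.23 ± 0.24 (SE; limma adjusted p = 0.661), with a 95% interval of -0.77 to 0.31. It was -0.04 without egfp replicate 1 (limma adjusted p = 0.976). The other copy, gpx1b, was listed at 0.26 to 1.54 fpm and did not reach the mean of 1 fpm needed for a test.

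Markers of red blood cells, which carry much catalase and peroxidase, were also highest in egfp replicate 1. The 3 matched IDs (hbaa1, alas2 and SLC4A1) summed to 689.6 fpm in that tumour, 210.6 and 332.2 fpm in egfp replicates 2 and 3, and 53.3 to 293.1 fpm in dgat1a tumours. None of the 3 was at 0 in any tumour and none had a limma adjusted p under 0.05. dgat1a replicate 3 had the lowest red cell sum and the lowest sod2, cat and gpx1a. Among the other dgat1a tumours the order differed by gene. Replicate 5, with the highest red cell sum of the dgat1a tumours, had their highest sod2 (48.7 fpm) but 62.5 fpm of cat. Replicate 1 had a sum of 260.6 fpm and the second lowest sod2 (30.4 fpm). Replicate 4, with 167.6 fpm, had the highest cat (77.5 fpm) and gpx1a (44.4 fpm) of the dgat1a tumours. Keratinocyte markers went the other way in egfp replicate 1, where the 4 IDs had their lowest sum of all tumours, 384.0 fpm. Of these, krt5 measured 16.7 fpm there and 584.5 to 2473 fpm elsewhere, krt4 5.46 against 104.7 to 581.0 fpm, and epcam 0.881 against 32.04 to 150.3 fpm, whereas cdh1 measured 360.9 fpm, the highest of the egfp tumours. Its endothelial sum, 51.4 fpm, was the lowest of the egfp tumours. The part of any of these cells in the 3 enzyme results was not tested, and in bulk RNA fewer cells of a type and less RNA per cell cannot be told apart.

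hmox1a, which encodes the inducible haem oxygenase, varied most of the 6. It measured 3.74, 11.6 and 32.2 fpm in egfp replicates 1 to 3, or 85, 263 and 835 reads, and 6.02, 10.7, 23.1, 23.2 and 14.5 fpm in dgat1a replicates 1 to 5. Both the lowest and the highest tumour were egfp tumours, a ratio of 8.61 between them, and all 5 dgat1a tumours lay between. The SD within groups was 1.07 log2 units, and 10.4% of all genes tested had a larger one, whereas gpx1a had 0.30 log2 units and 76.7% had a larger one. The log2 fold change was 0.27 ± 0.65 (SE; limma adjusted p = 0.862), and its 95% interval of 0.440-fold to 3.32-fold leaves the direction undetermined. Leaving out either extreme turned the estimate one way or the other, to -0.47 without egfp replicate 1 (limma adjusted p = 0.833) and to 1.004 when egfp replicate 3 was dropped (limma adjusted p = 0.459).

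The 2 matched markers of macrophages and neutrophils, marco and lyz, were examined beside hmox1a, which macrophages use in haem recycling. They summed to 104.5 fpm in egfp replicate 1, where hmox1a was lowest, and to 147.6 to 189.5 fpm in the other egfp tumours. In dgat1a tumours the sum was 157.3 to 324.6 fpm, with its highest value in replicate 2, whose hmox1a was the second lowest of the dgat1a tumours. lyz was at 0 in egfp replicate 1 and at most 1.49 fpm elsewhere. The part of these cells in the hmox1a levels was not tested.

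nfe2l2a, which encodes Nrf2, was the gene of the 6 with the largest positive estimate. It measured 75.9, 53.4 and 53.7 fpm in egfp replicates 1 to 3 and 115.7, 70.8, 76.8, 159.0 and 75.3 fpm in dgat1a replicates 1 to 5. Only egfp replicate 1 overlapped the dgat1a tumours, of which 3 of 5 lay above every egfp tumour. The group means were 60.99 ± 12.9 fpm (SD, n = 3) and 99.5 ± 37.8 fpm (SD, n = 5). The log2 fold change was 0.65 ± 0.30 (SE; limma adjusted p = 0.346), a 1.57-fold level with a 95% interval of 0.983 to 2.497. Without egfp replicate 1 it was 0.81 with a 95% interval of 0.04 to 1.59 (limma adjusted p = 0.549), and nfe2l2a was then the 1 gene of the 6 whose groups did not overlap, where 14.9% of all genes tested did not, 6.87% with all dgat1a tumours higher. Without dgat1a replicate 4, the highest tumour, it was 0.46 (limma adjusted p = 0.441).

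**Figure D2:**
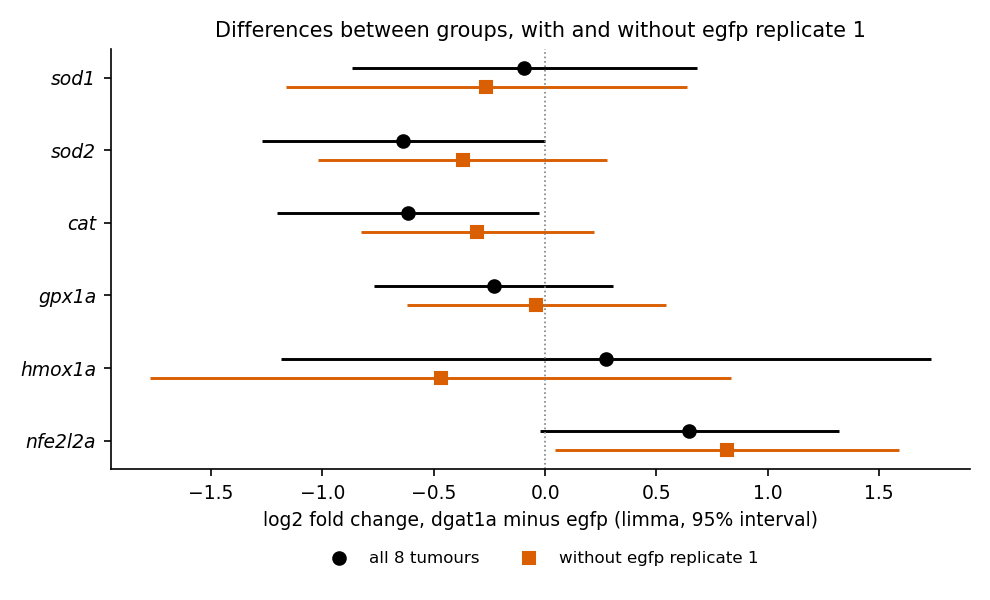
Log2 fold change of dgat1a minus egfp tumours for each gene (x axis) with its 95% interval from limma, for all 8 tumours (black circles) and without egfp replicate 1 (orange squares). sod2 and cat move towards 0 without that tumour (from -0.64 to -0.37 and from -0.61 to -0.31), nfe2l2a moves away from it (0.65 to 0.81) and hmox1a changes sign (0.27 to -0.47).

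The authors' deposited table gave the same 6 genes no adjusted p under 0.05, where 4.34% of its genes with an adjusted p had one. In the authors' deposited table the log2 fold change was -0.62 for sod2 (adjusted p = 0.265), -0.64 for cat (adjusted p = 0.211) and 0.65 for nfe2l2a (adjusted p = 0.269). It was -0.02 for sod1, -0.24 for gpx1a and -0.03 for hmox1a in the authors' deposited table, with adjusted p-values of 0.986, 0.692 and 0.986. The authors' deposited table was made from the same tumours, so it is not a second measurement.

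How the 6 genes varied together was examined over the 8 tumours, as Pearson's r and Spearman's rho of log2(fpm + 0.5) for 15 pairs, each with a two-sided exact permutation test and Benjamini-Hochberg adjustment over the 15. Both groups were pooled, so a difference between groups enters r. cat and gpx1a varied together with r = 0.889 (exact permutation p = 0.00238, adjusted p = 0.0357) and rho = 0.833 (exact permutation p = 0.0154, adjusted p = 0.14). sod2 and cat did so with r = 0.896 (exact permutation p = 0.00538, adjusted p = 0.0404) and rho = 0.786 (exact permutation p = 0.0279, adjusted p = 0.14). These were the 2 pairs with an adjusted p under 0.05 for r, and no pair had one for rho. Without the 2 tumours farthest from the median of the first gene, egfp replicate 1 and dgat1a replicate 3 in both pairs, r was 0.565 for cat and gpx1a (exact permutation p = 0.211) and 0.408 for sod2 and cat (exact permutation p = 0.497). Neither held without those 2 tumours, whose removal also narrows the range of the first gene. Without egfp replicate 1 alone r was 0.799 for cat and gpx1a (exact permutation p = 0.0268, adjusted p = 0.217) and 0.739 for sod2 and cat (exact permutation p = 0.0562, adjusted p = 0.281). After subtracting each group's mean, over all 8 tumours and with no test, r was 0.926 and 0.810.

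Among the pairs of sod1, the highest r was with hmox1a. It was 0.735 (exact permutation p = 0.0369, adjusted p = 0.138) and rho 0.81 (exact permutation p = 0.0218, adjusted p = 0.14), so the pair missed the threshold over 15 pairs. The r was 0.806 without egfp replicate 1 (exact permutation p = 0.0290) and 0.872 without dgat1a replicates 2 and 3, the tumours farthest from the median of sod1 (exact permutation p = 0.0236). sod1 and sod2 had r = -0.298 and rho = -0.02 (exact permutation p = 0.467 and 0.977). nfe2l2a had r between -0.242 and 0.306 with the 5 enzyme genes, and the lowest adjusted p of these 5 pairs was 0.637 (exact permutation). After subtracting each group's mean, with no test, the r of nfe2l2a was 0.694 with cat, 0.779 with gpx1a and 0.308 with sod2, where the pooled values were -0.04, 0.306 and -0.242. It was -0.210 with sod1 and -0.218 with hmox1a.

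**Figure D3:**
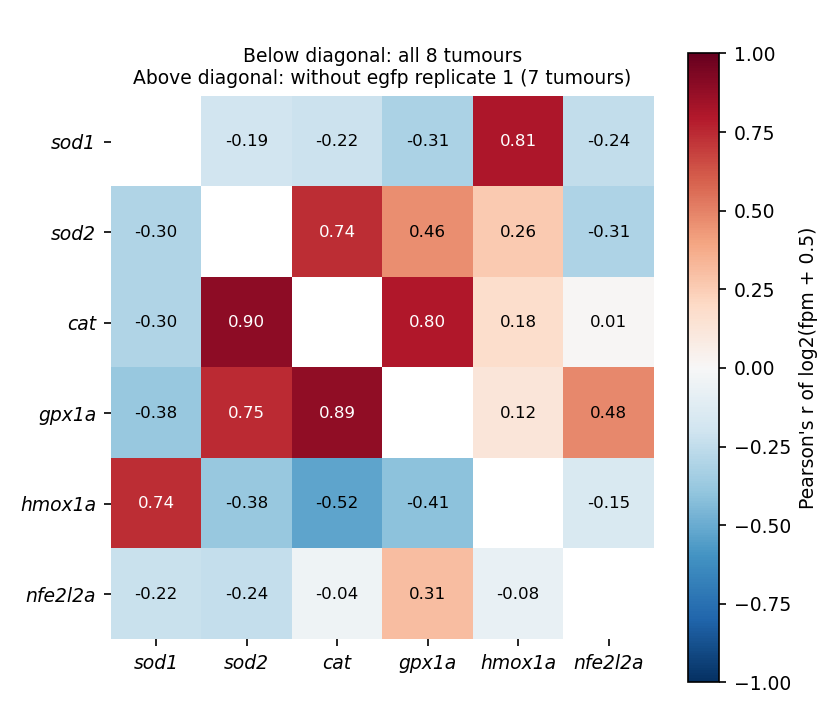
Pearson's r of log2(fpm + 0.5) for each pair of genes, over all 8 tumours below the diagonal and over the 7 tumours other than egfp replicate 1 above it, on a colour scale from -1 to 1. The pairs of sod2, cat and gpx1a have r of 0.75 to 0.90 below the diagonal and 0.46 to 0.80 above it, and sod1 with hmox1a has 0.74 and 0.81.

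For each gene, the most alike of the 16847 other tested genes was taken by Pearson's r over the 8 tumours, as a description. With so many genes and so few tumours, high values are found for any gene. The most alike gene was mhc2d8.37a2, an MHC class II gene by its symbol, for sod1 (r = 0.965) and PSMB8, a subunit of the immunoproteasome, for hmox1a (r = 0.967). It was fmo5, a flavin-containing monooxygenase, for sod2 (r = 0.989), ptpn9b, a protein tyrosine phosphatase, for cat (r = 0.987) and CNOT7, a subunit of the CCR4-NOT deadenylase, for gpx1a (r = 0.966). For nfe2l2a it was GLB1, the lysosomal beta-galactosidase (r = 0.973). PSMB8 lay at 100.1, 132.9 and 187.8 fpm in egfp replicates 1 to 3 and at 100.4, 125.5, 174.2, 196.3 and 144.7 fpm in dgat1a replicates 1 to 5, with its lowest values in the same 2 tumours as hmox1a. These r values were between 0.938 and 0.983 without egfp replicate 1.

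Other genes of the pathway were taken as 55 IDs of 6 roles, of which 49 had a mean of at least 1 fpm and were tested. None passed the limma threshold (0 higher and 0 lower, lowest adjusted p = 0.215). For 3 of the 49 every dgat1a tumour was above every egfp tumour, and for 2 every dgat1a tumour was below. The groups did not overlap in 10.4% of all genes tested. At an unadjusted p under 0.05, 6 were higher and 4 lower in dgat1a tumours, together 20.4% of the 49 against 15% of all genes tested. When egfp replicate 1 was left out, 3 were higher and 4 lower, against 8.96% of all genes tested. Their median log2 fold change was -0.09, beside 0.04 for all genes tested, and -0.03 without egfp replicate 1. DESeq2 on recovered reads gave 2 of the 49 an adjusted p under 0.05, TXNIP (ENSDARG00000036107) and PGD, where it called 5.2% of all genes. Without egfp replicate 1 neither remained, with DESeq2 adjusted p-values of 0.252 and 0.121, and DESeq2 called 0 of the 49 (background 1.61%), 6 of which had an unadjusted p under 0.05 (background 12.5%). The authors' deposited table, made from the same tumours, also gave TXNIP (ENSDARG00000036107) and PGD adjusted p-values under 0.05 (0.0467 and 0.0485). Of its genes with an adjusted p, 4.34% had one under 0.05.

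The 4 genes with the smallest p-values came from 4 of the roles. TXNIP (ENSDARG00000036107), which encodes a protein that binds and inhibits thioredoxin, measured 229.0, 350.6 and 361.3 fpm in egfp replicates 1 to 3 and 465.6 to 773.2 fpm in dgat1a tumours. The groups did not overlap, and the log2 fold change was 0.91 ± 0.25 (SE; limma adjusted p = 0.215; DESeq2 adjusted p = 0.0299). HMOX2, a constitutive haem oxygenase, measured 44.5, 39.2 and 50.8 fpm in egfp tumours and 12.6 to 31.6 fpm in dgat1a tumours. Its groups did not overlap either, and its log2 fold change was -1.03 ± 0.30 (SE; limma adjusted p = 0.215), beside 0.27 for hmox1a. The other listed hmox2 copy, hmox2b, had 0.09 (limma adjusted p = 0.909), and its groups overlapped. The differences between HMOX2, hmox2b and hmox1a were not tested. PGD, an enzyme of the pentose phosphate pathway that makes NADPH, had a log2 fold change of -1.27 ± 0.41 (SE; limma adjusted p = 0.237; DESeq2 adjusted p = 0.0334), with overlapping groups. nfe2l1b, which encodes a relative of Nrf2, had 0.76 ± 0.25 (SE; limma adjusted p = 0.24), and its groups overlapped.

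Genes that Nrf2 is known to activate in vertebrates were then set beside nfe2l2a. These genes, and the regulators of Nrf2 below, were named after their values were seen. NQO1, a quinone reductase, measured 201.4, 82.9 and 154.1 fpm in egfp tumours and 32.8 to 107.0 fpm in dgat1a tumours, with a log2 fold change of -1.04 (limma adjusted p = 0.295). GCLM, the modifier subunit of the enzyme that starts glutathione synthesis, measured 21.3, 24.3 and 31.6 fpm in egfp tumours and 31.1 to 43.5 fpm in dgat1a tumours, with a log2 fold change of 0.50 (limma adjusted p = 0.318). The catalytic subunit GCLC had a log2 fold change of 0.06 and SRXN1, sulfiredoxin, one of 0.07. gstp1.2, a glutathione S-transferase, had -0.94 (limma adjusted p = 0.242), and prdx1 (ENSDARG00000058734), a peroxiredoxin, had 1.25 (limma adjusted p = 0.297). A second ID of that symbol, PRDX1 (ENSDARG00000025350), had -0.12 (limma adjusted p = 0.817). Its mean over all tumours was 324.2 fpm, beside 73.3 fpm for prdx1 (ENSDARG00000058734). Without egfp replicate 1 prdx1 (ENSDARG00000058734) had 0.82 (limma adjusted p = 0.666), PRDX1 (ENSDARG00000025350) -0.12, GCLC 0.16 and SRXN1 0.04. In that fit NQO1 had -0.76, GCLM 0.37 and gstp1.2 -0.87 (limma adjusted p = 0.649, 0.678 and 0.555). The estimates of these genes had both signs, and none passed the threshold.

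The 13 Nrf2 regulators tested gave no call (0 higher and 0 lower in limma). KEAP1 (ENSDARG00000074634) measured 53.3, 54.5 and 43.7 fpm in egfp tumours and 21.9 to 52.7 fpm in dgat1a tumours, with a log2 fold change of -0.48 (limma adjusted p = 0.452). keap1a had -0.16 (limma adjusted p = 0.832). Among the Maf genes, MAFG (ENSDARG00000100097) had 0.62 (limma adjusted p = 0.357), and its groups did not overlap. MAFK had 0.34 and maff 0.02 (limma adjusted p = 0.673 and 0.971). nfe2l2b, the second nfe2l2 gene of zebrafish, measured 3.66, 2.47 and 2.05 fpm in egfp tumours and 1.105 to 1.83 fpm in dgat1a tumours. Its groups did not overlap, which held for 10.4% of all genes tested. The log2 fold change of nfe2l2b, -0.65 (limma adjusted p = 0.366), was opposite in sign to that of nfe2l2a, a difference that was not tested. Without egfp replicate 1, its highest tumour, nfe2l2b had -0.45 (limma adjusted p = 0.724). The gene had only 24 to 83 reads per tumour.

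By role, the medians of the log2 fold changes were 0.02 for 13 Nrf2 regulators, 0.03 for 11 glutathione genes and 0.04 for 12 thioredoxin and peroxiredoxin genes. They were -0.67 for 6 genes of NADPH and quinone metabolism and -0.53 for 6 genes of haem and iron handling. Both of these roles held estimates of both signs. Without egfp replicate 1 the 5 medians were, in the same order, -0.03, 0.05, 0.12, -0.41 and -0.37, and that of all genes tested was 0.02. The ferritin gene fth1a, which stores iron and belongs to the haem and iron group, measured 941.8, 831.3 and 578.2 fpm in egfp tumours and 518.2 to 825.2 fpm in dgat1a tumours, so that its groups overlapped.

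**Figure D4:**
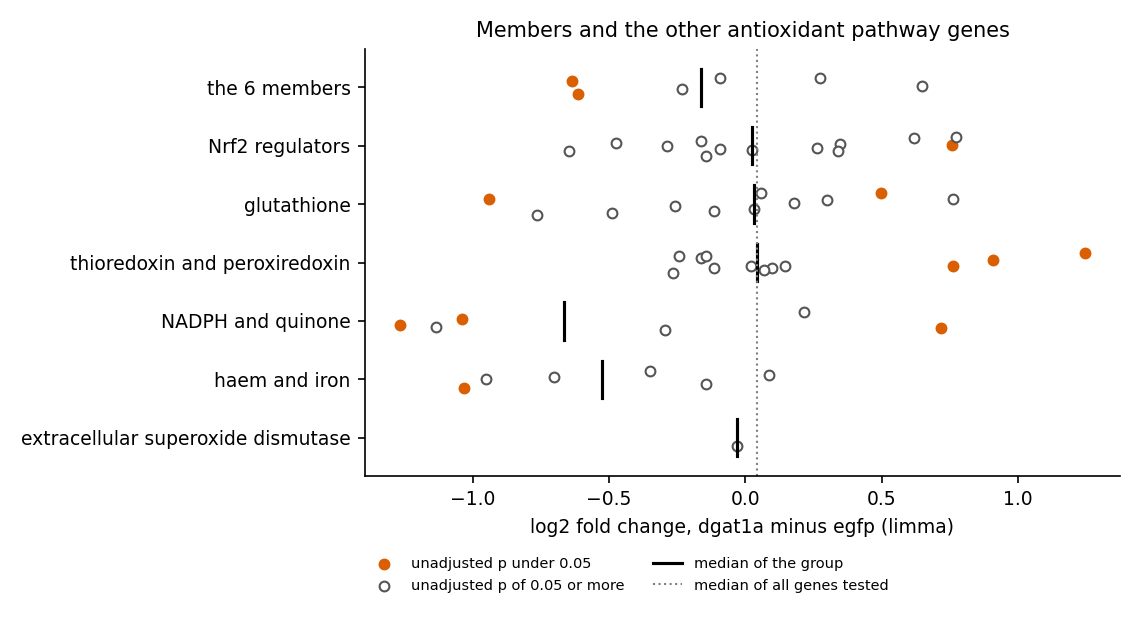
Log2 fold change of dgat1a minus egfp tumours (x axis, limma) for the 6 genes and for the 49 other tested genes of the pathway by role, filled where the unadjusted p was under 0.05. Black bars are group medians, the dotted line is the median of all genes tested (0.04), and no gene shown passed the threshold after adjustment over all genes.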

How the data were processed

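RNA of 3 egfp and 5 dgat1a tumours was sequenced, and the titles gave each sample its group and number. The submitters' processing notes name STAR 2.5.3, featureCounts 1.6.2, DESeq2 1.14.1 and GRCz11, without roles; the strand setting and gene filter are not given in the sources used here. The deposited per-million signal is scaled by the authors, its columns summing to 907747 to 1053608. Whole reads were recovered from it (100% of values whole within 0.01 reads). The deposited variance-stabilised values are on a log2-like scale, per the file headers and values. The authors' deposited table of 22416 genes holds a mean signal, a log2 fold change, its standard error, a score, a p-value and an adjusted p-value.

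limma 3.58.1 (R 4.3.3; intensity trend) was run on log2(fpm + 0.5) for genes averaging at least 1 fpm, two-sided, threshold 0.05 after Benjamini-Hochberg adjustment over all 16853 genes. edgeR 4.0.16 called 3 genes on recovered reads and DESeq2 1.42.0 called 866. A fold change on this scale understates the change of low genes. The 3 tools were run on simulated data with known changes, where a larger share of DESeq2's calls than of limma's or edgeR's was false. In the same simulation DESeq2 also found more of the changed genes than limma or edgeR did. Whether either result carries over to these tumours was not tested. No pair of libraries looked like duplicates (lowest chi-square 79.3 per degree of freedom). The floor of 3 reads covers counting error only. Symbols came from a name table that matched 21017 of 22416 IDs. It writes sod1, sod2, cat, hmox1a and nfe2l2a in capitals without the copy letter, so those copy letters come from the selection by ID. A listed symbol without a match was looked up without its final letter, and names are printed as in that table. Reads shared by near-identical copies, such as gpx1a with gpx1b, could not be assessed. The member genes, gene lists and tests were chosen with earlier results of these data known. Named from the pathway list were genes past the threshold, or else the 4 smallest p-values. Protein and promoter sequences, with the planned motif search, were not analysed here. Marker IDs were 24, for melanocytes, macrophages and neutrophils, muscle, keratinocytes, red blood cells and endothelium. A further allele shared by all 8 fish and the values of 1 pathway gene, which stays in the counts and medians, are not reported here.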

Additional observations from a re-analysis of the deposited data

Results flagged for a closer look

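In 28 sets of dgat1a values (the 6 genes, 16 other genes of the pathway and 6 marker sums), a single distant tumour was sought. It was found in 1 of the 28 sets. For normally distributed values, about 1 set in 20 would be flagged by chance, so 1 hit among 28 sets is unremarkable. Whether these values were so distributed was not tested. The summed level of the 3 skeletal muscle markers (actc1b, ckma and TNNT3) was 736.9 fpm in dgat1a replicate 1. It was 3.46, 141.8, 2.41 and 160.0 fpm in dgat1a replicates 2 to 5 and 0.927 to 12.5 fpm in egfp tumours. Besides replicate 1, dgat1a replicates 3 and 5 thus also lay above every egfp tumour. dgat1a replicate 1 had the second highest nfe2l2a level (115.7 fpm), and the part of muscle in it was not tested. dgat1a replicate 4, with the highest nfe2l2a (159.0 fpm), had a muscle sum of 2.41 fpm.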

How the results depend on the processing

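None of the 6 genes passed the adjusted threshold in any of 23 other settings, and the lowest adjusted p was 0.185 (cat, DESeq2). Signs were the same in all 23 for sod2, cat, gpx1a and nfe2l2a. For sod1 the log2 fold change was positive without egfp replicate 3 (0.11), dgat1a replicate 1 (0.03) or dgat1a replicate 2 (0.04), in a range of -0.33 to 0.11 over single tumours left out. For hmox1a it was -0.0497 with edgeR and -0.0277 with DESeq2. Over single tumours left out it was -0.47 (without egfp replicate 1) to 1.004, and without egfp replicate 1 it was -0.51 both with edgeR and with DESeq2, 2 fits added after the data were seen. The cause was not tested. Of all genes, 3 were called with edgeR, 866 with DESeq2, 0 with the replicate block and 4 with dgat1a replicates 1 to 3 only. Leaving out 1 tumour gave 5 (egfp replicate 1) to 55 (egfp replicate 2), and edgeR and DESeq2 without egfp replicate 1 gave 0 and 269, against 9. Of the other pathway genes, 2 were called with DESeq2 and 0 with DESeq2 without egfp replicate 1. With the replicate block, tumours 1 to 3 gave log2 fold changes of -0.84 for sod2, -0.72 for cat and 0.51 for nfe2l2a, with 0 of 6 called. The same tumours without the block also gave 0 of 6 called. Their log2 fold changes were the same, which this balanced design fixes in advance. The SE, which the block can change, was smaller with the block for hmox1a (0.35 against 0.78) and sod1 (0.29 against 0.44). It was also smaller for nfe2l2a (0.23 against 0.29), cat (0.28 against 0.32) and gpx1a (0.27 against 0.29), and slightly larger for sod2 (0.330 against 0.325). Same-numbered tumours deviated together with r of 0.24, 0.07 and 0.01 across genes, and 1 of 3 egfp and 2 of 3 dgat1a tumours correlated best with their own number. The r of 0.24, for number 1, was the highest of all pairs of an egfp with a dgat1a tumour. No label ties the numbers to a shared source, so the main fit did not pair the tumours. Whether same-numbered tumours share a source was not tested. Correlations changed sign without the 2 farthest tumours for sod1 and sod2 (0.17), sod2 and gpx1a (-0.10), sod2 and hmox1a (0.77), cat and hmox1a (0.71), gpx1a and hmox1a (0.51) and hmox1a and nfe2l2a (0.15). Without egfp replicate 1 they did for sod2 and hmox1a (0.26), cat and hmox1a (0.18), cat and nfe2l2a (0.00796) and gpx1a and hmox1a (0.12). The 6 genes had 85 or more reads in every tumour, and the effect of depth on their results was not tested.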
